A study of Mus musculus with 22 samples.

Results

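The homeostatic microglia genes described here are 8 genes named by symbol: Cx3cr1, P2ry12, Tmem119, Csf1r, Selplg, Trem2, Tyrobp and Ctss. The rule that picks them is their names, with no threshold on a measured value, though the names were chosen with earlier results of these data known. All 8 were found among the 16304 genes of the whole-cell (scRNA-seq) counts and among the 20668 genes of the nuclear (snRNA-seq) counts. Whole-cell microglia allowed a test of all 8, Day 1 microglia nuclei of 6 and Day 5 microglia nuclei of 7. None of those tested differed between icv FGF1 and vehicle by a call at a false discovery rate (FDR) below 0.05. The intervals of the differences were narrower in whole cells (folds of 0.606 to 1.69 over the 8) than in nuclei (0.439 to 4.64 over those tested).

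Microglia are the resident macrophages of the brain parenchyma, and in the undisturbed brain they carry a set of surface receptors and lysosomal enzymes that few other brain cells make. Cx3cr1 is the receptor for the neuronal chemokine fractalkine, P2ry12 senses ADP and guides process movement, and Csf1r is the receptor whose ligands keep microglia alive. Trem2 binds lipids and signals through the adaptor Tyrobp, Selplg is a selectin ligand, Tmem119 is a membrane protein used as a microglia marker, and Ctss is a lysosomal cysteine protease. Loss of P2ry12, Tmem119 and Cx3cr1 together with a gain of Trem2, Tyrobp and Apoe is known from activated microglia in models of neurodegeneration.

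The samples were hypothalami of male leptin-deficient ob/ob mice of 11 weeks, 1 mouse a library, given a single injection of 3 µg of FGF1 into the cerebral ventricles (icv), or vehicle with pair-feeding. Every mouse, vehicle mice included, therefore lacked leptin. Nuclei were taken on Day 1 from 3 FGF1 and 3 vehicle mice and on Day 5 from 2 FGF1 and 2 vehicle mice. Whole cells were taken on Day 5 from 6 FGF1 and 6 vehicle mice. The unit is the UMI, a count of molecules, and each mouse held 2652897 to 16345981 UMIs in all. Microglia were 914 FGF1 and 956 vehicle cells (40 to 371 a mouse), 147 and 97 nuclei on Day 1, and 168 and 69 nuclei on Day 5 (18 to 122 a mouse). The UMIs summed over the microglia of 1 mouse ran from 50763 to 491630 in cells and from 93395 to 447891 in nuclei. All p-values rest on the spread between mice. In the tests of single genes this spread is estimated in part from all genes together. In nuclei, with 2 or 3 mice a group, it is largely so.

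The labels were checked against 10 microglia markers, among them C1qa and C1qb, none of which is one of the 8 genes. Whole-cell cluster 8 had all 10, at a median of 59.8 times their level in other cells, and they took 134 of each 10000 UMIs there. Ranked by level over other cells, cluster 8 was led by Ccl4 (203 times), Il1a (182), Tnf (158), Cx3cr1 (152) and Ccl3 (141). Ccl3 and Ccl4 are on the list of immediate early and stress genes used below. The whole cells had been dissociated with enzymes, and the part of this step in the whole-cell levels was not tested. In the nuclei annotated as microglia, marker UMIs were 7.72 per 10000, while a list of 8 neuron genes took 207 per 10000, against 238 in nuclei annotated as unmapped neurons, 203 in oligodendrocyte nuclei, 61.7 in astrocyte nuclei and 5.12 in whole-cell microglia. The neuron list sum in nuclei rests largely on Meg3. In Day 5 microglia nuclei Meg3 had a mean of 16147 scaled UMIs per 1000000 with FGF1 and 12386 with vehicle. Grin2b, also on the list, was at 813 and 591. Of the 481 microglia nuclei, 371 had at least 2 marker UMIs. How far the neuronal UMIs bear on the nuclear levels given here was not tested. A library is any one mouse's set of barcodes, and no pair of libraries shared more than 1 microglia barcode.

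One whole-cell library stood apart. Microglia were 12.0% of the cells of FGF1 mouse 6, against 1.65 to 5.51% in the other 11 mice. Of its 286 microglia, 17 had no UMI of any of the 8 genes, and 7 of these 17 had no marker UMI either. Its microglia held 12.6 UMIs per 10000 of a list of 10 border macrophage genes, the macrophages that line vessels and meninges (FGF1 mouse 7 held 12.1, the others 1.18 to 4.45), and 4.05 of a list of lymphocyte, neutrophil and monocyte genes, where no other mouse exceeded 0.398. Of its microglia, 36 had a UMI of this last list, and 0 of these lacked a UMI of the 8 genes. The differences of the 8 genes in whole-cell microglia are also given without this library.

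The promoters of Trem2 and Ctss are shown as those, of the windows held, with a short motif of a macrophage factor. RefSeq promoter windows (GRCm38.p6) were held for 4 of the 8 genes. The 250 bases before the start are printed 5′ to 3′ on the gene's strand, Trem2 from chr17:48346151-48346400 (plus strand) and Ctss from chr3:95526536-95526785 (plus strand), and neither window overlaps an annotated exon. Capitals mark the letters GAGGAA or their reverse complement, the core that PU.1 (Spi1), the master transcription factor of macrophages, is known to bind.
Trem2: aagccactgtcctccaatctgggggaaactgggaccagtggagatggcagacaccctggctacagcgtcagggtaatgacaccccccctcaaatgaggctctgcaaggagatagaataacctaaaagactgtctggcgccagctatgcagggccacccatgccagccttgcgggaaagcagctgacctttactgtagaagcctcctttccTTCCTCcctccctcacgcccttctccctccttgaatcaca
Ctss: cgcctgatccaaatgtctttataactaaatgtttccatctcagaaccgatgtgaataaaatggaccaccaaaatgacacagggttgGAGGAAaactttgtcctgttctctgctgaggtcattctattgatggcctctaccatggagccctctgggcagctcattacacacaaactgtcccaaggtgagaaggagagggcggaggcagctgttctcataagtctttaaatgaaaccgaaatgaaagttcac
Searched on both strands, GAGGAA was in 2 of the 4 windows, on the opposite strand from -40 to -35 in Trem2 and on the gene's strand from -164 to -159 in Ctss, counted from the start. It was in 23.3% of 32851 promoters of the same length. The longer GAGGAAGT was in 0 of the 4 (2.44% of all promoters) and the composite motif of PU.1 and IRF factors in 0 of the 4 (2.30%). GAGGAAGT contains GAGGAA, so these 2 counts are not independent.

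The 8 genes are at different places in the genome and differ in size (GENCODE annotation, GRCm38). Tmem119 is at chr5:113793729-113800516 and Selplg at chr5:113818536-113832644, both on the minus strand. Tyrobp is at chr7:30413760-30417585, Trem2 at chr17:48346401-48354147 and Ctss at chr3:95526786-95556403, all on the plus strand. None of Tmem119, Selplg, Trem2 and Tyrobp overlaps another annotated gene, and Csf1r overlaps Hmgxb3 at its end. Cx3cr1, at chr9:119901616-120069879 on the minus strand, is annotated over 168264 bases and overlaps 9 genes, 5 of them protein-coding. P2ry12, at chr3:59216272-59262871 on the minus strand, lies wholly within Med12l on the plus strand. The nuclear counts include reads in introns, and the part of overlapping genes in the levels below was not tested.

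In whole cells, each of the 8 genes was highest in microglia. The level, in UMIs per 1000000 UMIs of the type over all mice (CPM), was 1748 for Cx3cr1, 404.0 for P2ry12 and 635 for Tmem119 in microglia, and 225, 25.5 and 29.4 in border macrophages (cluster 16, 329 cells). Border macrophages thus held 12.9%, 6.31% and 4.63% of the microglia level of these 3 genes. Selplg was also low there, at 84.3 CPM against 978. The other 4 were shared more widely between these 2 types. Csf1r was at 484 CPM in border macrophages and 1432 in microglia (33.8%), Ctss at 721 and 2578 (28.0%) and Trem2 at 210 and 853 (24.6%). Tyrobp was nearest to even, at 1341 and 1788 CPM (75.0%). The authors clustered the cells on these same data, so the differences are a description.

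**Figure D1:**
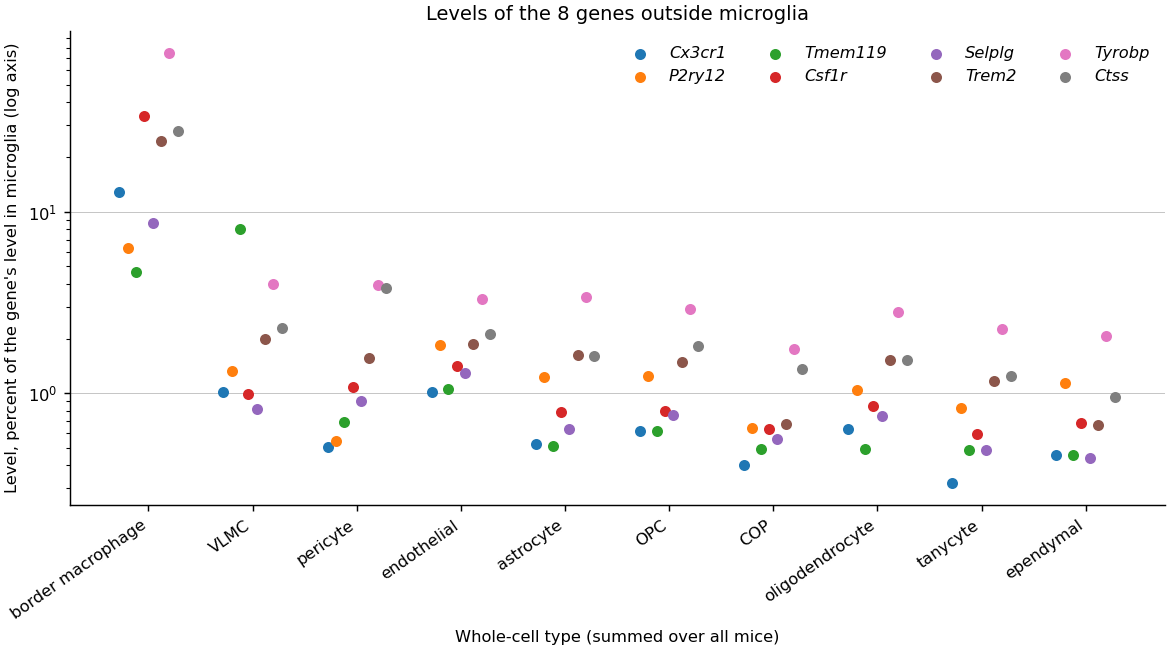
Level of each of the 8 genes in 10 whole-cell types other than microglia, as a percent of that gene's level in microglia (log axis), summed over all mice, with 1 point a gene and type. Border macrophages hold the highest values, from 4.63% (Tmem119) to 75.0% (Tyrobp), and for Tmem119 alone another type, VLMC, is above them at 7.98%.

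Outside these 2 types the 8 genes were low. In the other 52691 cells, Tyrobp was at 48.4 CPM and Ctss at 38.4, 2.71% and 1.49% of the microglia level, and 6.38% and 4.87% of the cells had a UMI. Astrocytes, which should lack these genes, had a Tyrobp UMI in 6.35% of cells, and oligodendrocytes in 6.65%. One gene and type stood out from the rest. Tmem119 was at 50.6 CPM in vascular and leptomeningeal cells (VLMC, fibroblast-like cells of the vessels and meninges), 57 UMIs in 752 cells, or 7.98% of its microglia level, and over the 9 mice with at least 10 such cells it ran from 0 to 82.9 CPM with a median of 59.3. In VLMC nuclei Tmem119 was at 32.1 CPM (12 UMIs in 115 nuclei), above the 20.6 CPM of microglia nuclei (42 UMIs in 481 nuclei).

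In nuclei the restriction to microglia was weaker. By the share of all UMIs it was weakest for Cx3cr1 and P2ry12, but not by the level in astrocytes. The microglia level was 71.2 CPM for Cx3cr1 and 198 for P2ry12, but astrocytes held 13.3 and 14.9 CPM and the 662 oligodendrocyte precursors 16.9 and 26.5 CPM. Microglia nuclei held 9.32% of all Cx3cr1 UMIs and 18.2% of all P2ry12 UMIs, against 84.8% and 75.0% in whole-cell microglia. For the other 6 genes microglia nuclei held 27.7 to 45.6%. Neurons had been removed from the whole cells but not from the nuclei, so these shares are of unlike sets. Unmapped neuron nuclei held 225 and 170 Cx3cr1 UMIs with FGF1 and vehicle on Day 1, and 155 and 118 on Day 5. Cx3cr1 reached 64.3 CPM in 184 ependymal nuclei (47 UMIs). Ctss and Tyrobp reached 37.2 and 24.5 CPM in astrocyte nuclei, 21.9% and 38.8% of their microglia levels. Cx3cr1 was at 18.7% and P2ry12 at 7.51% there, and the rest of the 8 genes ran from 6.96% to 17.2%. Cx3cr1 and P2ry12 are the pair whose annotated spans hold or lie within other protein-coding genes, and the part of those genes in their nuclear levels was not tested.

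On Day 5 in whole-cell microglia, the 8 genes were compared between 6 FGF1 and 6 vehicle mice. By mouse, the level is in CPM scaled by TMM (trimmed mean of M-values), and 0 of the 8 genes were called by edgeR's quasi-likelihood test. Over all genes 7 of 2676 were called (0.262%). The groups overlapped for all 8, and 0.262% of genes had all FGF1 mice above all vehicle mice and 0.448% all below. At an unadjusted p below 0.05 there were 0 of the 8 and 12.7% of all genes. The log2 difference was positive for 7 of the 8, with a median of 0.17, where the median of all genes was -0.01 and 48.7% were positive. Of the 1870 microglia 851 lay above the 20% ceiling that the study set for UMIs from mitochondrial or ribosomal genes, and among the rest the median was 0.066, the range -0.31 to 0.29, with 7 of the 8 positive and 0 called. In whole-cell microglia the 10 markers took 119 through 168 to 184 UMIs per 10000 with FGF1 and 83.7 through 109 to 180 with vehicle. The neuron list took 2.08 through 3.48 to 5.22 and 3.74 through 4.89 to 9.78, and the astrocyte list 13.3 through 19.1 to 29.6 and 18.3 through 29.6 to 35.7. All of these overlapped between the groups, and their part in the differences was not tested.

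Of the receptors for signals from other cells, Cx3cr1 ran from 1614 through a median of 2417 to 2903 CPM in FGF1 mice and from 1401 through 1980 to 2721 in vehicle mice. The log2 difference was 0.19 (SE 0.18, 95% interval -0.18 to 0.55, edgeR FDR 0.734). P2ry12 ran from 267 through 477 to 790 CPM with FGF1 and from 267 through 610 to 733 with vehicle, a log2 difference of -0.20 (SE 0.25, -0.72 to 0.32, FDR 0.815). The ranges of both genes lay almost on top of each other, and P2ry12 was the only one of the 8 with a negative difference. Csf1r, the survival receptor, ran from 1322 through 1765 to 2384 CPM with FGF1 and from 1514 through 1586 to 2183 with vehicle. Its log2 difference of 0.05 was the smallest of the 8 and had the narrowest interval (SE 0.16, -0.28 to 0.39, FDR 0.935). This interval spans folds of 0.822 to 1.31.

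The lipid receptor Trem2 ran from 551 through 1259 to 1516 CPM in FGF1 mice and from 506 through 1043 to 1507 in vehicle mice. Its log2 difference was 0.13 (SE 0.25, -0.39 to 0.65, FDR 0.886). For its adaptor Tyrobp the levels were 1543 through 2330 to 2853 and 1373 through 1938 to 3021 CPM, with a log2 difference of 0.17 (SE 0.19, -0.23 to 0.56, FDR 0.790). For both genes the lowest and the highest mice of the 2 groups were at similar levels, and neither group was set apart. Selplg ran from 620 through 1292 to 2047 CPM and from 851 through 1128 to 1584 CPM, a log2 difference of 0.17 (SE 0.22, -0.29 to 0.63, FDR 0.824). Tmem119 ran from 468 through 839 to 1399 CPM with FGF1 and from 535 through 715 to 1010 with vehicle, and its log2 difference was 0.27 (SE 0.22, -0.18 to 0.72, FDR 0.678). FGF1 mice held both the lowest and the highest values of Selplg and Tmem119. Without FGF1 mouse 21 the Tmem119 difference was 0.13.

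The protease Ctss had the largest difference. It ran from 2845 through 3658 to 4384 CPM in FGF1 mice and from 1533 through 3056 to 3693 in vehicle mice. The log2 difference was 0.36 (SE 0.19, -0.04 to 0.76), with an unadjusted p of 0.0765 and an FDR of 0.450 by edgeR. The groups overlapped, since the highest vehicle mouse lay above the median FGF1 mouse.

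**Figure D2:**
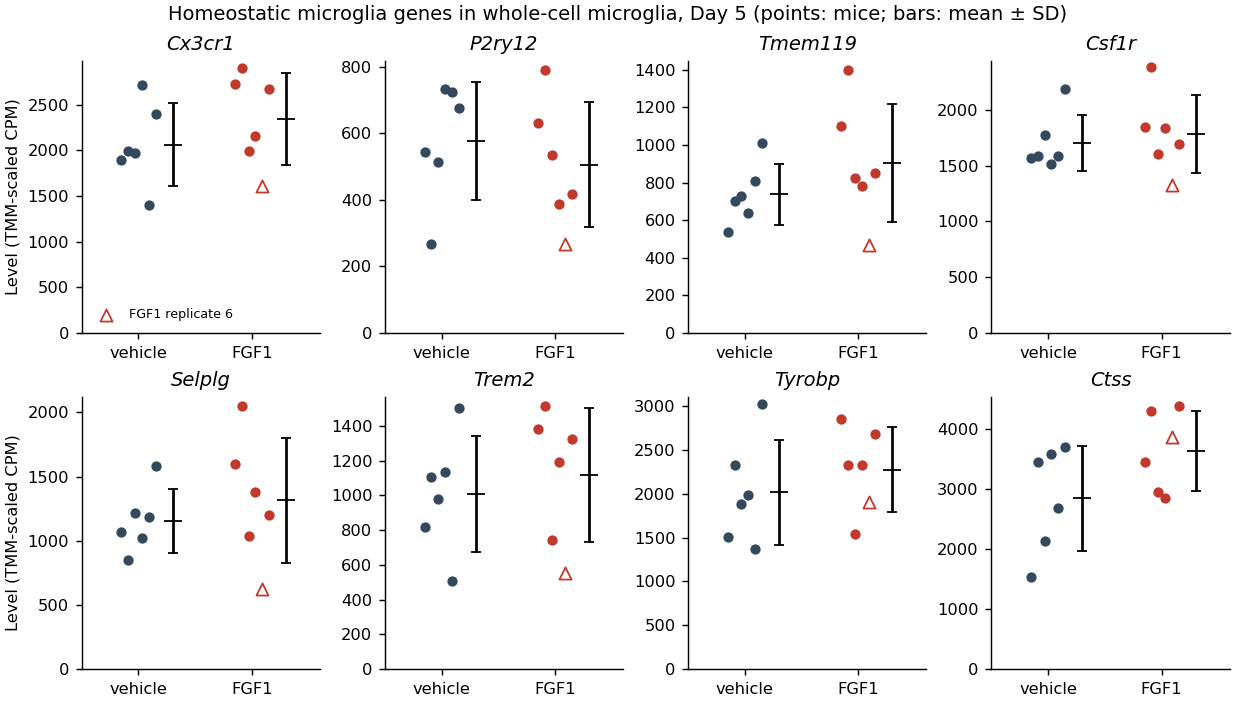
Level of each gene in the microglia of each whole-cell mouse on Day 5 (TMM-scaled CPM), FGF1 and vehicle, 6 mice each, with the mean ± SD beside the points and FGF1 mouse 6 as an open triangle. The groups overlap for all 8 genes, and for Ctss the FGF1 mice run from 2845 to 4384 and the vehicle mice from 1533 to 3693 CPM.

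FGF1 mouse 6 had the lowest Csf1r, Tmem119 and Selplg of all 12 mice. Without it the log2 differences were 0.42 for Tmem119, 0.33 for Selplg, 0.30 for Cx3cr1, 0.29 for Trem2, 0.23 for Tyrobp, 0.15 for Csf1r, 0.36 for Ctss and -0.04 for P2ry12, and none of the 8 was called. Each of the 6 batches named in the deposited metadata held 1 FGF1 and 1 vehicle mouse. Within them FGF1 was the higher of the pair for Tmem119 and Selplg in 5 of 6, for Cx3cr1, Csf1r and Ctss in 4, for Trem2 and Tyrobp in 3 and for P2ry12 in 1. The sum of the 8 genes was 90.3 to 149 UMIs per 10000 with FGF1 and 81.8 to 134 with vehicle, and the groups overlapped.

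The variation between mice was then described across the 8 genes. With group means removed, the Pearson correlation of log2 level over 12 mice was positive for 27 of 28 pairs, from -0.02 (P2ry12 with Tyrobp) through a median of 0.58 to 0.93 (Csf1r with Selplg). Each gene against the mean of the other 7 gave 0.84 for Tmem119, Csf1r and Trem2, 0.81 for Selplg, 0.78 for Cx3cr1, 0.64 for Tyrobp, 0.48 for P2ry12 and 0.35 for Ctss. The points share libraries and depth. Over the same mice, here with group means not removed, the sum of the 8 genes had an r of 0.90 with the 10 markers and 0.57 with median UMIs a cell. Its r was -0.75 with a list of 6 astrocyte genes and -0.68 with a list of 6 oligodendrocyte genes. How much of the shared variation is microglial was not tested. Among the genes with the most similar pattern over the mice were Rnase4 (r 0.92), Rab3il1 (0.90), Abi3 (0.89) and Mef2c (0.88), out of 2668. Over 20 clusters of whole cells they were C1qb (0.98), C1qc, Coro1a, C1qa and Aif1 (0.96 each), out of 2689.

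**Figure D3:**
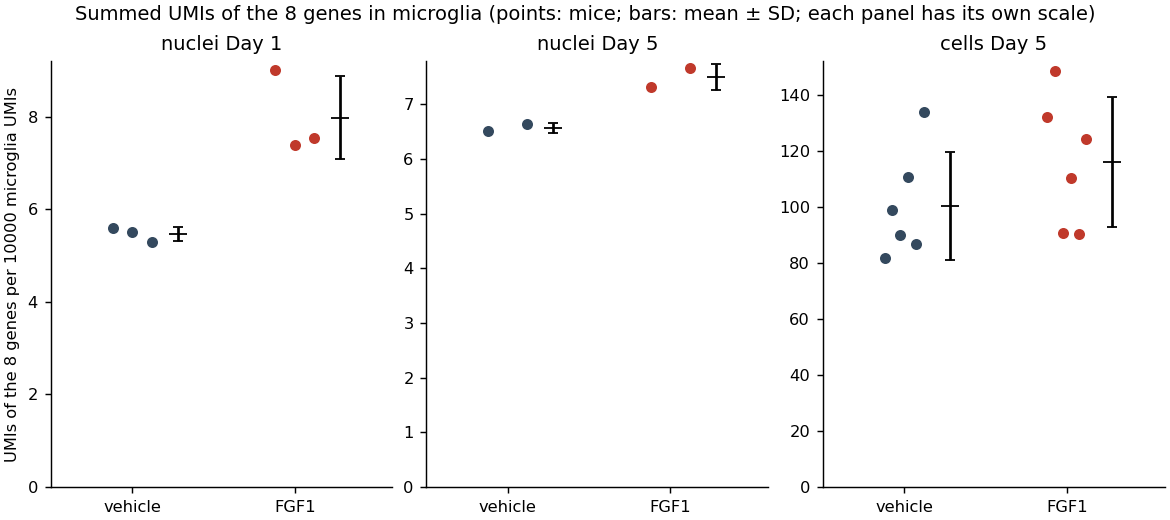
UMIs of the 8 genes per 10000 microglia UMIs in each mouse, by dataset, day and treatment, with the mean ± SD beside the points and a scale of its own in each panel. In nuclei every FGF1 mouse is above every vehicle mouse on both days, and in whole cells the groups overlap, with mouse 6 at 90.3. Of single genes tested, 4.74% on Day 1 and 18.7% on Day 5 had every FGF1 mouse higher, which is no rate for a sum of 8 genes.

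On Day 1 in microglia nuclei, the day after the injection, 6 of the 8 genes had enough UMIs to be tested and 0 of 6 were called (0 of 4053 genes, 0.00%, with 198 at an unadjusted p below 0.05 and 1 called by DESeq2). All 6 log2 differences were positive, with a median of 0.53, where the median of all genes was at 0. Cx3cr1 and Selplg reached the low-count filter in every FGF1 mouse but not in every vehicle mouse. This favoured a positive difference for both, so the count of positive differences supports nothing. In the same nuclei the UMIs of the border macrophage list were 1.602, 2.005 and 2.48 per 10000 in FGF1 mice 1 to 3 and 0.80, 0.687 and 1.64 in vehicle mice 1 to 3, none of its 10 genes had enough UMIs to be tested, and their part in these differences was not tested. The groups overlapped for all 6 (4.74% of genes had every FGF1 mouse higher and 6.00% every one lower).

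Cx3cr1 was at 85.3, 107 and 154 CPM in FGF1 mice 1 to 3 and at 63.1, 90.3 and 59.2 in vehicle mice 1 to 3. The log2 difference was 0.59 (SE 0.39, -0.25 to 1.43, FDR 0.965). P2ry12 was at 313, 209 and 283 CPM against 324, 78.3 and 166 (0.51, SE 0.43). Vehicle mouse 1 lay above every FGF1 mouse for P2ry12, so the groups overlapped, and the difference was 1.22 without that mouse and 0.13 without vehicle mouse 2. Selplg was at 131, 143 and 77.2 CPM against 55.2, 78.3 and 71.0, a log2 difference of 0.83 (SE 0.39, 0.00 to 1.65, edgeR p 0.0495, FDR 0.953). Among all genes 4.89% had an unadjusted p that low. Since Selplg needed the FGF1 mice to pass the low-count filter, its p is given as a value and supports nothing. FGF1 mouse 3 lay below vehicle mouse 2 for Selplg.

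Ctss was at 256, 230 and 257 CPM with FGF1 and at 71.0, 259 and 166 with vehicle (0.55, SE 0.39), with 1 vehicle mouse above every FGF1 mouse. Without that mouse, vehicle 2, the difference was 1.14, and without vehicle 1 it was 0.20. Csf1r was at 102, 71.5 and 64.3 against 71.0, 54.2 and 107 (0.15, SE 0.41), and Tyrobp at 114, 71.5 and 64.3 against 63.1, 84.3 and 82.9 CPM (0.16, SE 0.39). For these genes the order of mice did not follow the treatment. Within the 3 batches FGF1 was the higher of the pair in 3 of 3 for Cx3cr1 and in 2 of 3 for each of the other 5 genes. Tmem119 and Trem2 were too sparse to test. Tmem119 had 11, 6 and 1 UMIs in FGF1 mice and 6, 3 and 0 in vehicle mice. Trem2 had 10, 8 and 2 UMIs with FGF1 and 3, 2 and 0 with vehicle, or 20.6 to 45.8 against 0 to 18.5 in unscaled CPM, and the order of the mice is given as a description, since no share of all genes was computed for genes below the filter. The 0 in vehicle mouse 3 allows up to 28.9 CPM.

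On Day 5 in microglia nuclei, 7 of the 8 genes were tested and 0 of 7 were called (6 of 4974 genes, 0.121%), and 0 of 7 had an unadjusted p below 0.05 (7.14% of genes). Trem2 had 11 and 25 UMIs in FGF1 mice 37 and 45 and 6 and 2 in vehicle mice 28 and 38, or 54.6 and 65.2 against 30.1 and 24.2 CPM. Both FGF1 mice were higher, with a log2 difference of 1.10 (SE 0.53, -0.02 to 2.21, edgeR p 0.0542, FDR 0.692). Selplg also did not overlap, at 129 and 86.1 against 80.3 and 84.8 CPM (0.34, SE 0.41). With 2 mice against 2, 18.7% of all genes had both FGF1 mice higher and 19.2% both lower. Trem2 passed the low-count filter through the FGF1 mice only, which favoured a positive difference, so its non-overlap and its p are given as values and support nothing.

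P2ry12 was at 313 and 237 CPM with FGF1 and at 241 and 194 with vehicle (0.27, SE 0.28), Csf1r at 64.5 and 102 against 70.3 and 72.7 (0.28, SE 0.43) and Ctss at 174 and 222 against 196 and 133 CPM (0.21, SE 0.30). The Ctss difference ran from 0.024 without FGF1 mouse 45 to 0.65 without vehicle mouse 28. Cx3cr1 was at 54.6 and 88.7 against 65.3 and 133 CPM (-0.23, SE 0.46), and Tyrobp at 59.6 and 73.1 against 70.3 and 84.8 (-0.15, SE 0.43). Leaving out 1 mouse, the Cx3cr1 difference ran from -0.77 to 0.21 and that of Csf1r from -0.12 to 0.52. Within both batches Trem2, Selplg and P2ry12 were higher with FGF1 and Cx3cr1 and Tyrobp lower. Tmem119, with 10 and 5 UMIs a group, was not tested.

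**Figure D4:**
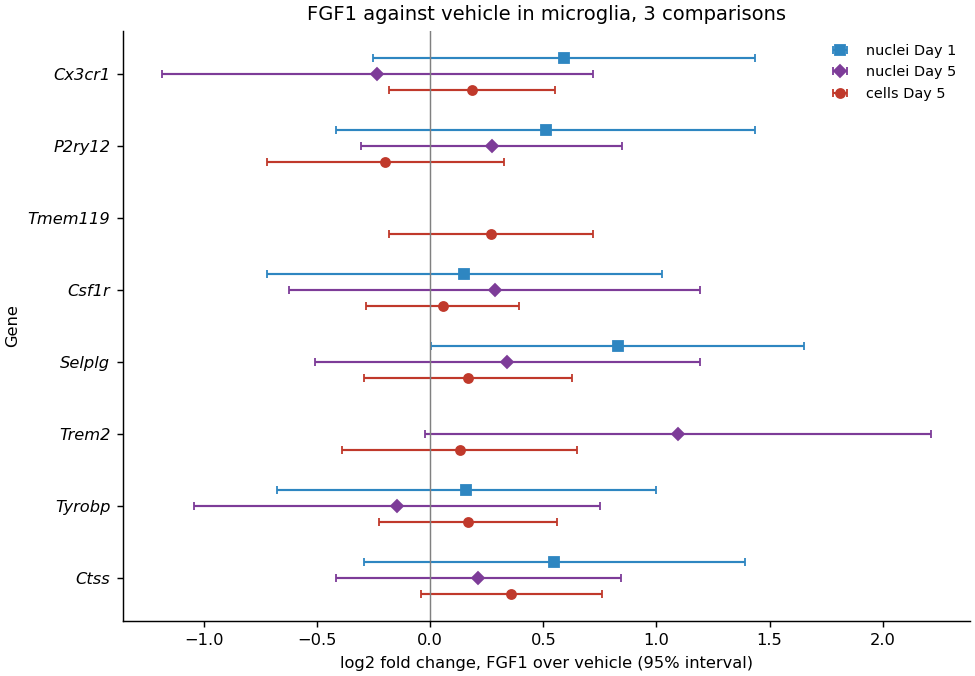
Log2 difference, FGF1 minus vehicle, of each gene in microglia in the 3 comparisons, with 95% intervals from edgeR. Except for Selplg in Day 1 nuclei (0.00 to 1.65), which needed the FGF1 mice to pass the low-count filter, every interval spans 0. Those of whole cells are the narrowest and those of nuclei reach from -1.19 to 2.21.

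A difference between the days needs its own test. For the 6 genes tested in both, the Day 5 minus Day 1 difference of log2 effects ran from -0.89 for Cx3cr1 (SE 0.63) to 0.09 for Csf1r (SE 0.62), and 0 of 6 were called (0 of 5941 genes, 0.00%, with 230 at an unadjusted p below 0.05 and 2 called by edgeR with no low-count filter). The sum of the 8 genes per 10000 microglia UMIs was 9.02, 7.39 and 7.53 in FGF1 mice 1 to 3 and 5.60, 5.50 and 5.30 in vehicle mice 1 to 3 on Day 1, and 7.32 and 7.66 in FGF1 mice against 6.51 and 6.64 in vehicle mice on Day 5. FGF1 mice were higher in both, also among nuclei with at least 2 marker UMIs. The 10 markers were at 11.4, 7.02 and 5.16 against 5.97, 8.25 and 5.50 per 10000 on Day 1, with the groups overlapping, and at 7.15 and 8.77 against 6.93 and 6.10 on Day 5, where, like the sum of the 8 genes, both FGF1 mice were higher. On Day 5 both FGF1 mice were also higher for the neuron list (204 and 248 against 182 and 199 per 10000) and the oligodendrocyte list (7.15 and 7.95 against 3.44 and 3.00), and the part of these lists in the sum was not tested. Of single genes tested, 4.74% on Day 1 and 18.7% on Day 5 had every FGF1 mouse higher. These are shares of single genes that passed the low-count filter, and no such share was computed for sums of 8 genes. The sum was not tested, since the 8 genes were chosen with results known.

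The share of microglia with a UMI depends on depth. Thinned to 1907 UMIs a nucleus, Trem2 was in 9.84 ± 0.34% of Day 1 FGF1 nuclei (SD, 3 mice, 121 nuclei kept of 147) and 0.725 ± 1.26% of vehicle nuclei (97 of 97), and unthinned in 11.6 ± 2.60% and 5.15 ± 5.60%. These shares rest on 20 Trem2 UMIs with FGF1 and 5 with vehicle before thinning. Unthinned, the mice overlapped, at 8.70 to 13.7% with FGF1 and 0 to 11.1% with vehicle. Thinned in the same way, Csf1r (13.1 ± 5.64% against 13.8 ± 6.74%), Tyrobp (12.0 ± 5.17% against 12.4 ± 4.67%) and Tmem119 (2.89 ± 2.54% against 3.41 ± 3.27%) had the lower mean with FGF1, and Cx3cr1, P2ry12, Selplg and Ctss the higher. On Day 5 the thinned shares of Trem2 were 10.1 ± 5.00% and 4.86 ± 0.98%. In whole cells thinned to 912 UMIs Ctss was in 87.3 ± 3.53% of FGF1 microglia (849 cells kept of 914) and 78.3 ± 11.3% of vehicle microglia (835 of 956). Unthinned it was in 92.6 ± 4.50% and 87.4 ± 8.42% (6 mice each), and in 4.93 ± 2.52% and 4.07 ± 1.63% of astrocytes.

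Other genes of the same programs gave no call either. Over all genes in whole cells 0.262% were called, 48.7% were positive and 12.7% had an unadjusted edgeR p below 0.05. Of 24 other homeostatic genes, all tested in whole cells, 0 were called, 13 were positive, with a median of 0.02, and 6 had such a p. No fit without mouse 6 is given for the lists of this paragraph. Olfml3, a secreted microglial protein, came nearest (log2 difference 0.88, SE 0.21, FDR 0.0652), then Sall1, the factor that keeps microglial identity (-0.68, SE 0.20, FDR 0.125), and C1qc, a complement subunit (0.49, SE 0.18, FDR 0.234). Of 24 genes of activated microglia, 15 were tested, 0 were called, and 14 were positive with a median of 0.32. Of these 15, 4 had an unadjusted edgeR p below 0.05. In the same cells the border macrophage list took 3.06 through 4.44 to 12.6 UMIs per 10000 with FGF1 and 1.18 through 2.43 to 4.24 with vehicle, with Cd163, Lyve1 and Cbr2 at 0 in both groups, and its part in these differences was not tested. The smallest p were those of the lysosomal proteases Ctsz (0.59, SE 0.20, FDR 0.181) and Ctsb (0.50, SE 0.17, FDR 0.205) and of lysozyme Lyz2 (1.82, SE 0.64, FDR 0.252), which is also on the border macrophage list and shares sequence with Lyz1. Of 14 ligands and partners, 7 were tested and 0 called. Those with the smallest p were Cd74 (-1.47, SE 1.29), Cd34 (0.23, SE 0.24) and Apoe (0.28, SE 0.46). Of 16 myeloid transcription factors 13 were tested and 0 called, and of 23 immediate early and stress genes 22 and 0. After Sall1, the smallest p among the factors were those of Runx1 (0.45, SE 0.25) and Cebpb (0.60, SE 0.35), and among the immediate early genes those of Jun (-0.35, SE 0.20), Btg2 (0.29, SE 0.20) and Klf4 (-0.46, SE 0.33).

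In nuclei none of the immediate early and stress genes had enough UMIs to be tested on either day. The other lists just named held 0 calls on both days, where 0.00% of all genes were called on Day 1 and 0.121% on Day 5. Those tested on Day 1 and Day 5 were 11 and 14 of 24 other homeostatic genes, 6 and 8 of 24 activated genes, 4 and 6 of 14 ligands and partners and 3 and 5 of 16 factors. On Day 1 the smallest p were those of Siglech, a microglial lectin (log2 difference 1.84, SE 0.57, FDR 0.883), Sparc (-1.31, SE 0.51) and Mef2c (0.62, SE 0.28) among the other homeostatic genes, of Cd63, Cd9 and Ctsd (1.66, 0.73 and -0.59) among the activated genes and of Cst3, Adam10 and Inpp5d (-0.74, 0.42 and 0.15) among the ligands and partners. On Day 5 they were those of C1qc (-1.002, SE 0.40, FDR 0.604), C1qa (0.57) and Mertk (0.39), of Apoe (-0.805), Cd9 (0.65) and Ctsl (0.53), and of Apoe, Adam10 (0.40) and Cst3 (-0.18). Among the factors they were Mef2c, Tcf4 (0.29) and Mef2a (0.08) on Day 1 and Tcf4 (0.47), Mef2a (-0.28) and Runx1 (0.52) on Day 5. None passed the test, and C1qc had opposite signs in whole cells and nuclei of Day 5.

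The 7 genes that were called in whole-cell microglia, among them Gstm5, 2900052N01Rik, Gstm1, Cldn10, Ndufa5 and Zwint, were all lower with FGF1. With RLE in place of TMM scaling 9 genes were called, 2 of them higher. Gstm1 and Gstm5 are glutathione transferases. Gstm5 fell by 1.14 on the log2 scale (SE 0.20, FDR 0.0211). Its unscaled level in microglia was 106 ± 31.0 CPM with FGF1 and 249 ± 46.8 with vehicle (SD, 6 mice each), and in astrocytes it was 368 ± 111 CPM with FGF1 and 597 ± 67.3 with vehicle. In oligodendrocytes Gstm5 was at 335 ± 62.6 and 431 ± 45.4 CPM. The mean of each of these 6 named genes was lower with FGF1 in astrocytes too. Astrocyte-list UMIs in microglia were 13.3 to 29.6 per 10000 with FGF1 and 18.3 to 35.7 with vehicle, and their part in these calls was not tested. Of the astrocyte list 5 of 6 genes were tested and 0 called, with Agt at -0.96 (SE 0.23), Aqp4 at 1.202 (SE 0.37) and Slc1a2 at -0.63 (SE 0.21) on the log2 scale. Of the oligodendrocyte list 5 of 6 were tested and 0 called, with Mag at -0.74, Mobp at -0.75 and Mbp at -0.34. Of the neuron list 3 of 8 were tested and 0 called, with Stmn2 at -1.23, Snap25 at -1.34 and Meg3 at -0.30. Of the border macrophage list 2 of 10 were tested and 0 called, Lyz2 (above) and Stab1 (0.41), and of the lymphocyte, neutrophil and monocyte list none could be tested. The 7 calls fell to 0 without any one of vehicle mice 20, 25, 27 and 29 or FGF1 mice 7 and 21. In Day 5 nuclei 1 of the 6 called genes was higher with FGF1, and Nnat, Gm26917, Rabac1, Eif1 and Ly6h were lower. The means of these 5 genes were lower with FGF1 in astrocyte, oligodendrocyte and unmapped neuron nuclei too, with Nnat at 112 ± 5.60 against 448 ± 86.2 CPM in oligodendrocytes and Gm26917 at 18.7 ± 9.57 against 159 ± 125 in unmapped neurons (SD, 2 mice each). Oligodendrocyte-list UMIs were 7.15 and 7.95 per 10000 in the FGF1 and 3.44 and 3.00 in the vehicle microglia nuclei. In nuclei of the other lists, Stmn2, Snap25 and Syn1 differed by 0.56, -0.32 and 0.45 on Day 1, and Rbfox3, Grin2b and Meg3 by 0.82, 0.40 and 0.38 on Day 5 (neuron list, 8 of 8 tested, 0 called). Slc1a3 and Slc1a2 differed by -0.93 and -0.09 on Day 1, and Slc1a2, Slc1a3 and Agt by -0.51, -0.40 and -0.41 on Day 5 (astrocyte list). Mbp differed by -1.22 on Day 1 (oligodendrocyte list, 2 of 6 tested, 0 called).

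In the other cell types, 46 tests of the 8 genes over 16 combinations of type, day and dataset gave 0 calls (1.75% of 188303 gene-by-type tests) and 3 at an unadjusted p below 0.05 (11.2%). By dataset these were 0 of 28 in whole cells (4.37% of all such tests), 0 of 5 in Day 1 nuclei (1.11%) and 0 of 13 in Day 5 nuclei (0.300%). The 3 were Tyrobp in oligodendrocyte precursors (log2 difference 0.60, FDR 0.174) and Selplg in astrocytes (-1.14, FDR 0.0844), both in whole cells, and P2ry12 in unmapped neuron nuclei on Day 5 (-0.75, FDR 0.401). The highest Tyrobp in the precursors was that of mouse 6, at 123 CPM. The other FGF1 mice ran from 30.7 to 73.4 CPM and the vehicle mice from 30.1 to 61.6. Selplg in astrocytes rested on 23 UMIs with FGF1 and 78 with vehicle, at means of 4.67 and 7.85 CPM. Border macrophages had enough cells in 5 FGF1 and 4 vehicle mice. There Ctss ran from 608 through 655 to 1440 CPM with FGF1 and from 320 through 524 to 784 with vehicle. The 1440 was that of mouse 6, and the other 4 FGF1 mice ran from 608 to 776 CPM, below the highest vehicle mouse. Tyrobp ran from 955 through 1379 to 1853 and from 944 through 1430 to 1992 CPM. Csf1r ran from 298 through 399 to 565 and from 256 through 586 to 718 CPM. The groups overlapped for all 3. In oligodendrocyte precursors Ctss ran from 23.03 through 60.5 to 173 CPM with FGF1 and from 23.8 through 33.1 to 54.3 with vehicle. The 173 was that of mouse 6, and the groups overlapped. The log2 difference was 0.99 (SE 0.48, FDR 0.324), it was called with batch as a block (0.94, SE 0.23, FDR 0.00844), and without mouse 6 it was 0.54. The 1.75% and 4.37% above are of fits without a block. No share of all genes called with the block in these precursors is given, so this call is given as a value only. Over all mice Ctss was at 46.7 CPM in these precursors, 1.81% of its microglia level, where all cells other than microglia and border macrophages held 38.4 CPM. In those other cells the 8 genes together took 2.74 UMIs per 10000 in mouse 6 and 0.727 to 1.90 in the other 11 mice. Over the 12 libraries this level had an r of 0.749 with the share of microglia. Mouse 6 was the highest on both measures, with 12.0% microglia, and no r without it is given. The part of this background in the Ctss and Tyrobp values of the precursors and the Selplg value of astrocytes was not tested.

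Microglia were 4.24 ± 3.84% of whole cells with FGF1 and 3.07 ± 1.45% with vehicle on Day 5 (SD, n = 6 each, two-sided exact permutation p = 0.684). FGF1 mouse 6 was at 12.0% and the other FGF1 mice at 1.65 to 3.59%, and without mouse 6 the difference changed sign. In nuclei microglia were 1.85 ± 0.33% and 2.14 ± 0.10% on Day 1 (n = 3 each, exact permutation p = 0.20, where the smallest possible is 0.10). On Day 5 in nuclei the shares were 2.07 and 2.12% in FGF1 mice and 1.603 and 3.05% in vehicle mice, where 2 against 2 mice cannot go below an exact permutation p of 0.333.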

How the data were processed

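Hypothalamic nuclei and whole cells of 22 ob/ob mice were profiled by 10x Chromium 3′ sequencing, 10 mice as nuclei and 12 as whole cells. The authors made the UMI count tables with Cell Ranger 1.2 on GRCm38, with introns included for nuclei, filtered barcodes on detected genes and on mitochondrial and ribosomal UMIs, removed Scrublet doublets and neurons from the whole cells (no doublet step was run on nuclei), clustered with Seurat, and deposited the raw counts with a batch, a cluster or a cell type for each barcode. The deposited percent columns give mitochondrial and ribosomal UMIs of each cell; 4382 of 54890 cells, 851 of them among the 1870 microglia, exceed the stated limit of 20%, and all were kept here. The deposited normalised tables were not used. No doublet caller was run here. Nuclei types are the authors' annotation. Whole-cell clusters were named from marker lists (at least 3 markers, each in at least 10% of the cells and at 2 times the level elsewhere), and a rule for clusters that passed for 2 types was set after their profiles were seen.

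Counts were summed per mouse and type, with at least 10 barcodes a mouse, and tested with edgeR 4.0.16 (filterByExpr, TMM, robust quasi-likelihood, Benjamini-Hochberg adjustment over all genes tested, FDR below 0.05), each dataset and day on its own. DESeq2 1.42.0, other scaling, no filter, blocks for batch and replicate number, and leaving out each mouse were the alternatives. Shares were tested by exact permutation. Correlations are descriptions. Intervals and limits from counts cover counting error only. Promoter windows and motifs were read from RefSeq. The fitting code was tested on simulated data. Of simulated microglia genes changed by a log2 of 1, 77% were called in whole cells. In nuclei 11% were called on Day 1 and 26% on Day 5, so a missing call there leaves changes of this size undecided. In each comparison the 8 genes, every called gene (up to 10 in each direction) and, from each list without a call, the 3 tested genes with the smallest p are named. Some genes that this rule selects are not reported here. The 8 genes and all lists were chosen with earlier results of these data known.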

Additional observations from a re-analysis of the deposited data

Results flagged for a closer look

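Both results that stood out among the mice belong to 1 library. FGF1 mouse 6 had 5.94% of its whole-cell microglia without a UMI of any of the 8 genes, while the other 5 FGF1 mice lay between 0 and 0.483%, and its microglia made up 12.0% of its cells, while the other 5 FGF1 mice lay between 1.65 and 3.59%. In each case the gap to the nearest mouse exceeded Dixon's 95% limit for a group of 6. Of 22 groups examined in this way 2 stood out, where chance gives about 1 in 20. Outside microglia and border macrophages the same library held 2.74 UMIs per 10000 of the 8 genes, against 0.727 to 1.90 in the other 11 mice.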

How the results depend on the processing

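No alternative called any of the 8 genes in microglia, while the count of all genes called moved widely. In whole cells it was 7, and 20 with DESeq2, 96 with no low-count filter, 14 with the batch block, 0 within the 20% limit and 0 to 60 leaving out 1 mouse (60 without vehicle 35, 40 without vehicle 22, 18 without FGF1 28, 3 without FGF1 6, 2 without FGF1 10 and 0 without vehicle 20, 25, 27 or 29 or FGF1 7 or 21). In Day 1 nuclei it was 0, and 1 with DESeq2, 15 with no filter and 0 to 3 leaving out 1 mouse (3 without FGF1 1, 2 without FGF1 2). In Day 5 nuclei it was 6, and 2 with DESeq2, 18 with no filter and 4 to 21 leaving out 1 mouse (21 without FGF1 37, 14 without vehicle 38). In other cell types 1 of the 8 genes was called with the batch block, Ctss in whole-cell oligodendrocyte precursors. Csf1r turned to -0.025 without FGF1 21 in whole cells, to -0.054 without vehicle 2 on Day 1 (0.43 without vehicle 3) and to -0.12 without FGF1 45 on Day 5 (0.52 without FGF1 37). Tyrobp turned to -0.14 without FGF1 1 on Day 1 (0.34 without FGF1 2), and Cx3cr1 to 0.00453 without FGF1 37 and to 0.21 without vehicle 38 on Day 5 (-0.77 without vehicle 28). The difference in microglia share turned to -0.385 percentage points without FGF1 6 (range -0.385 to 1.68) and to 0.492 without vehicle 38 on Day 5 (range -0.951 to 0.492). The replicate numbers of Day 1 nuclei do not pair the mice (r of -0.10, -0.13 and 0.16 between mice of 1 number over 4053 genes), and with the replicate block 0 genes were called. Many differences of single genes that kept their sign and stayed uncalled still changed in size: leaving out 1 mouse, in whole cells Tmem119 ran from 0.13 (without FGF1 21) to 0.42 (without FGF1 6), Cx3cr1 from 0.11 (without vehicle 29) to 0.30 (without FGF1 6), Ctss from 0.23 (without vehicle 20) to 0.48 (without vehicle 35), Trem2 ran from 0.0087 (without vehicle 29) to 0.31 (without vehicle 35), Selplg from 0.019 (without FGF1 21) to 0.33 (without FGF1 6), Tyrobp from 0.087 (without vehicle 29) to 0.35 (without vehicle 35) and P2ry12 from -0.34 (without FGF1 21) to -0.038 (without FGF1 6), and in Day 5 nuclei Selplg ran from 0.082 (without FGF1 37) to 0.67 (without FGF1 45) and P2ry12 from 0.10 (without FGF1 37) to 0.53 (without vehicle 28). The cause was not tested. In nuclei, 1 mouse can hold 0 UMIs of Trem2.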
